A study of Mus musculus with 9 samples.

Results

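The comparison described here set mouse tibiae that had received titanium particles together with I-OG against tibiae that had received titanium particles alone. I-OG is an injectable hydrogel of natural polymers that carries irisin. The members were all libraries of these groups, 3 labelled as treated with titanium particles and I-OG (Ti + I-OG) and 3 labelled as treated with titanium particles (Ti), together 6 of the 9 libraries in the series. The other 3 libraries came from tibiae without treatment (naive). All 9 libraries were fitted together, so the spread among the naive libraries also enters the errors and p-values of this comparison. Apart from that, the naive libraries appear below as levels and values beside the members. A fit of the 6 libraries alone is given as an alternative. The particles model aseptic loosening, in which debris worn from an implant leads to loss of bone around it without infection, and the study asked which genes differ between the groups, naming the integrin, Wnt and inflammatory pathways. Treatment with the hydrogel lasted 5 weeks. For the Ti and naive tibiae the labels state no duration, and for any group no strain, age, dose or sex. No group among these samples received the hydrogel without irisin, so irisin, its carrier and any difference in time cannot be told apart. No label says that the libraries of a group came from separate mice, so the p-values speak of the spread among these libraries alone, and part of that spread may be technical.

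Irisin is cleaved from the membrane protein encoded by Fndc5, is released by working muscle, and has been reported to act on bone cells through integrins that contain the alpha V chain. A tibia sample holds bone, cartilage, marrow and, where soft tissue stays attached, muscle and tendon. Skeletal muscle fibres come in slow and fast kinds, which build the same contractile apparatus from different members of the same gene families: slow fibres use the myosin heavy chain Myh7, its light chains Myl2 and Myl3, and the troponins Tnni1, Tnnt1 and Tnnc1, while fast fibres use Myh1, Myh2 and Myh4, Mylpf and Myl1, and Tnni2, Tnnt3 and Tnnc2.

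The 6 libraries held between 16256082 and 24049496 counts each, so that 3 counts, taken as the floor for a gene with none, correspond to 0.124 to 0.206 CPM, the unit of counts scaled to library size used below. Of 22183 genes in the table, 14211 had enough counts to be tested. Their median log2 fold change was near 0 (-0.003) and 49.6% of them had a positive value. Bone genes were well measured in both groups: the osteoblast gene Bglap stood at 298 to 368 CPM in Ti and 178 to 273 CPM in Ti + I-OG. Of 8 skin and hair markers, 2 had enough counts to be tested. Across genes, the fold change was lower for longer transcripts (Spearman's rho -0.32 over 14211 genes, which share libraries and are not independent). Its median went from 0.14 in the shortest of 5 equal bins of genes to -0.12 in the longest. Several gene groups of short or long transcripts are therefore also given with a correction for length.

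Few genes passed the test. At an adjusted p under 0.05 (edgeR's quasi-likelihood test with Benjamini-Hochberg adjustment over all 14211 genes), 6 genes were higher in Ti + I-OG, which is 0.0422% of those tested, and none was lower. At an unadjusted p under 0.05 there were 596 higher genes (4.19%) and 518 lower genes (3.65%). DESeq2 called 11 higher (0.0774%) and 5 lower (0.0352%), and limma-voom 6 higher (0.0422%) and none lower. The limma test on log2(FPKM + 1) called 5 higher (0.0352%), the fit with a correction for transcript length 4 (0.0281%) and the fit of the 6 libraries alone 5 (0.0358%), each with none lower. The 3 libraries of one group lay wholly above those of the other for 1101 genes higher in Ti + I-OG (7.75%) and 953 genes lower (6.71%). Of the 6 called genes, 5 encode parts of the slow-fibre contractile apparatus, namely Myh7, Tnni1, Myl3, Myl2 and Tnnt1, and the other is Angptl4, a secreted inhibitor of lipoprotein lipase and a target of the fatty acid receptors of the PPAR family. The calls changed with the libraries used: without any 1 of the 6 libraries, 0 to 5 genes passed. Without Ti replicate 1 none passed. Without Ti replicate 2, 5 passed, of which 3 were among the 6 called genes and 2 were other genes called lower.

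**Figure D1:**
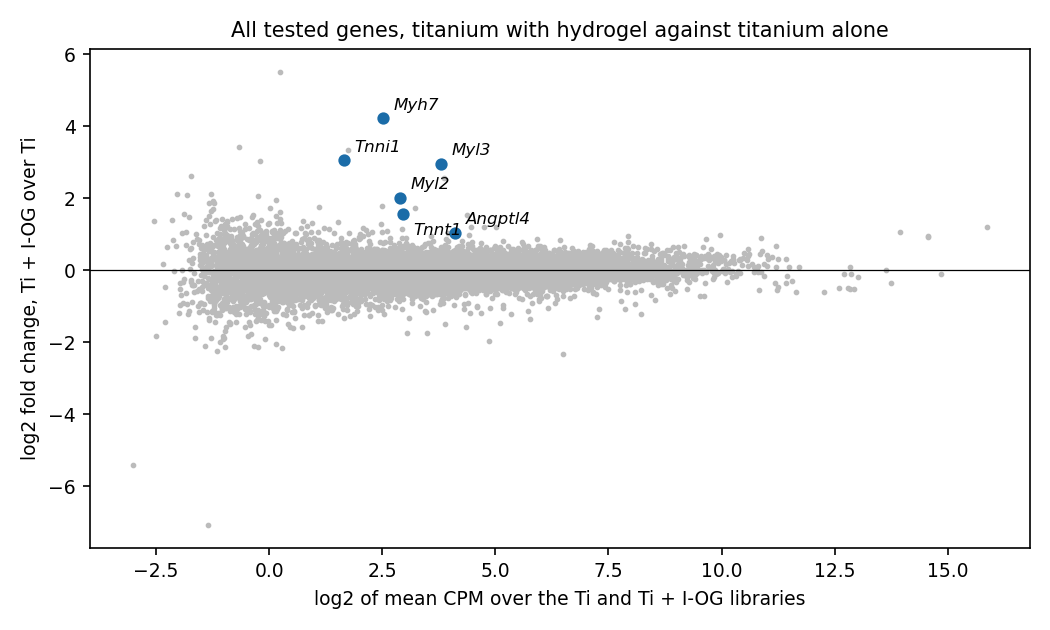
Each point is 1 of the 14211 tested genes, placed by the log2 of its mean CPM over the 6 libraries (horizontal) and its log2 fold change in Ti + I-OG over Ti (vertical). The 6 genes with an adjusted p under 0.05 are labelled, and all of them lie above 0. A few points with larger fold changes, mostly at low CPM, did not pass.

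The slow-fibre genes are shown first by sequence, because their levels moved together. The stretches printed are the 150 bases nearest to the start site, within the window upstream of the RefSeq start (GRCm38.p6), that hold no annotated exon of any gene, 5′ to 3′ on the strand of the gene. Capitals mark E-boxes (CANNTG, the motif bound by myogenic regulators such as MyoD, which reads the same on both strands) and MCAT motifs (CATTCC, or GGAATG on the other strand). TATA motifs, searched as TATAAA and TATATA, were not in these 4 stretches. The stretches end 0 (Myh7), 19 (Tnni1), 32 (Myl3) and 29 (Tnnt1) bases before the RefSeq start. Motifs in the bases left out were not searched, so a TATA motif there would be missed.
Myh7 (chr14:54994627-54994776, minus strand): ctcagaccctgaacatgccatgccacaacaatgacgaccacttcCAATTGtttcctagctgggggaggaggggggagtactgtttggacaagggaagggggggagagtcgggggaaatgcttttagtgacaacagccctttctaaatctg
Tnni1 (chr1:135799252-135799401, plus strand): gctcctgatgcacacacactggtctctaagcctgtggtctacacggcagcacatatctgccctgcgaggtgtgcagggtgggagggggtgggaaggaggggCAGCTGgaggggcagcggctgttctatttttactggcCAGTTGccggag
Myl3 (chr9:110763496-110763645, plus strand): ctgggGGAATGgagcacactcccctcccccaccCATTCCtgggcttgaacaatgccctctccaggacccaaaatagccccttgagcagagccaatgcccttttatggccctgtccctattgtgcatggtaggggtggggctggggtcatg
Tnnt1 (chr7:4516005-4516154, minus strand): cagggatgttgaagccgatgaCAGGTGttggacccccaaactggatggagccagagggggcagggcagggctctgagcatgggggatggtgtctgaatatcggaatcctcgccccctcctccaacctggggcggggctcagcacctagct
Myh7 held 1 E-box, Tnni1 held 2, Tnnt1 held 1 and Myl3 held none. The MCAT motif occurred 2 times in Myl3 and in none of the other 3 stretches. Among the 150 bases upstream of the start in all 32851 promoters of the table, 47.7% held an E-box, 7.59% an MCAT motif and 9.48% a TATA motif. That window reaches the start and was not cut at exons, unlike the stretches of Tnni1, Myl3 and Tnnt1. The RefSeq start sites listed for Myl2 lie 7762 and 8227 bases from its GENCODE start, so no stretch is printed for it.

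Myh7 (ENSMUSG00000053093, chr14:54970684-54994626 on the minus strand of GRCm38), the slow myosin heavy chain, had the largest fold change among the called genes. Its level was 0.567, 0.907 and 0.245 CPM in the Ti libraries, from 12, 22 and 5 counts, and 11.4, 10.2 and 11.05 CPM in the Ti + I-OG libraries, from 230, 149 and 195 counts. All 3 hydrogel libraries lay far above all 3 titanium libraries, and the hydrogel libraries were close to each other. The log2 fold change was 4.21 ± 0.40 (SE), or 18.5-fold, with an adjusted p of 0.00387, and Myh7 passed in 5 of the 6 fits that left out a library (adjusted p 0.0588 without Ti replicate 1). The naive level was 0.14 ± 0.10 CPM (SD, n = 3). Against naive, the log2 fold change of Myh7 was 2.01 in Ti (adjusted p = 0.0518) and 6.23 in Ti + I-OG (adjusted p = 0.000163). In the comparison of Ti with naive 6.43% of all genes passed (4.05% higher, 2.39% lower), and in that of Ti + I-OG with naive 8.26% (3.84% higher, 4.43% lower).

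The slow troponins came next. Tnni1 (ENSMUSG00000026418, chr1:135779434-135810989, plus strand), the inhibitory troponin of slow fibres, stood at 0.803, 0.742 and 0.441 CPM in Ti and at 5.50, 6.46 and 4.82 CPM in Ti + I-OG. The groups did not overlap, and the log2 fold change was 3.06 ± 0.36 (adjusted p = 0.0198). Tnnt1 (ENSMUSG00000064179, chr7:4504570-4516382, minus strand), the tropomyosin-binding troponin of slow fibres, stood at 4.67, 3.55 and 3.63 CPM in Ti and at 11.9, 12.6 and 10.2 CPM in Ti + I-OG. Of the 5 called slow genes it had the highest level in naive tibiae (2.71 ± 0.52 CPM, SD, n = 3) and the smallest fold change (1.55 ± 0.22, adjusted p = 0.0322). Tnnc1 (ENSMUSG00000091898, chr14:31208312-31211729, plus strand), the calcium-binding troponin that slow fibres share with heart, stood at 0.519, 1.03 and 0.196 CPM in Ti and at 4.96, 9.68 and 3.68 CPM in Ti + I-OG. Its groups did not overlap either and its fold change was large (3.35 ± 0.55), but its libraries were more spread and it did not pass (adjusted p = 0.132). Tnnc1 was called by DESeq2 (adjusted p = 3.19e-06), with the replicate number as a block (0.00409), by limma on log2(FPKM + 1) (0.0298) and without the filter on low counts (0.0327).

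The light chains of slow myosin were also called. Myl3 (ENSMUSG00000059741, chr9:110741861-110769798, plus strand), the essential light chain, stood at 3.16, 4.08 and 2.25 CPM in Ti and at 17.3, 34.5 and 22.3 CPM in Ti + I-OG, a log2 fold change of 2.95 ± 0.37 (adjusted p = 0.0212). Myl2 (ENSMUSG00000013936, chr5:122100951-122113472, plus strand), the regulatory light chain, stood at 4.25, 2.39 and 2.25 CPM in Ti and at 11.6, 12.98 and 11.3 CPM in Ti + I-OG, a log2 fold change of 2.01 ± 0.28 (adjusted p = 0.0322). In neither gene did the groups overlap. Leaving out a library ended the calls more often than for Myh7: Tnni1 passed in 1 of the 6 fits, Myl3 in 2, and Myl2 and Tnnt1 in 0 of 6. The adjusted p then ranged from 0.0467 to 0.227 over these 4 genes, while the fold changes kept to 2.85 to 3.21 for Tnni1, 2.64 to 3.18 for Myl3, 1.85 to 2.36 for Myl2 and 1.48 to 1.69 for Tnnt1. Myl2 and Tnnt1 also lost their call with the correction for length, Myl2 at 1.79 and an adjusted p of 0.137, Tnnt1 at 1.37 and 0.207. Tnnt1 did not pass on log2(FPKM + 1) (adjusted p = 0.0693) or log2(FPKM + 0.1) (0.104) either.

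Some of these values carry uncertainty from neighbouring or related genes, since the library kit named in the labels does not mark the strand. In GENCODE M21 (GRCm38), the exons of Myh7 overlap Mhrt, Gm29015 and Gm31251 on the opposite strand. Levels of these overlapping genes are not given here, and their part in the Myh7 counts was not tested. The coding sequence of Myh7 is close to that of the heart gene Myh6, with which it can share reads. Myh6 itself had 2, 5 and 2 counts in Ti and 11, 1 and 4 in Ti + I-OG, far below the Myh7 counts of the hydrogel libraries. Myl2 overlaps Ccdc63, a gene at 0.991, 0.784 and 0.686 CPM in Ti and 0.793, 0.618 and 0.283 CPM in Ti + I-OG. Myl3 overlaps Pth1r, an osteoblast gene at 52.7, 80.7 and 55.6 CPM in Ti and 55.4, 52.6 and 29.1 CPM in Ti + I-OG, whose log2 fold change was of opposite sign (-0.46, adjusted p = 0.692).

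**Figure D2:**
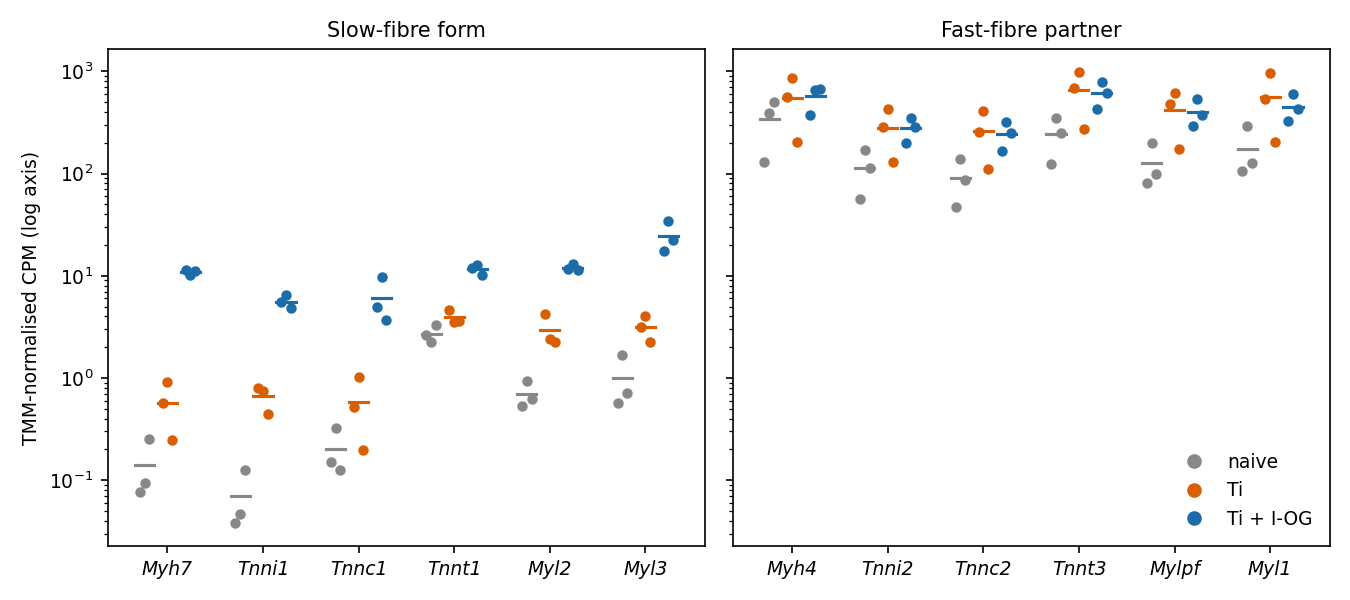
TMM-normalised CPM on a log axis for 6 slow-fibre genes (left) and their fast-fibre partners (right). Points are libraries and bars are means, with 3 libraries in each of the naive, Ti and Ti + I-OG groups. In every slow gene the 3 Ti + I-OG points lie above the 3 Ti points, while in every fast partner the 2 groups overlap.

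The list of slow-fibre genes held 11 members, of which 5 were called higher and 10 had a positive fold change, with a median of 1.55 beside -0.003 for all genes tested. In these 5 and Tnnc1 the groups did not overlap, 6 of 11 beside 7.75% of all genes, and in the other members they did. Against naive, the median of the slow list was 1.65 in Ti, with 5 of 11 called higher beside 4.05% of all genes. In Ti + I-OG it was 2.37, with 8 of 11 called higher beside 3.84%. The median of 14 fast-fibre genes against naive was 1.24 in Ti and 1.25 in Ti + I-OG, each with 1 called higher. Both comparisons with naive share libraries with the one described. The Z-disc gene Myoz2 had 6.28, 10.3 and 2.79 CPM in Ti and 9.82, 9.41 and 8.05 CPM in Ti + I-OG (0.49 ± 0.40, adjusted p = 0.762). Ankrd2, a stretch-responsive gene of slow muscle added to the description after values were seen, had 2.88, 5.28 and 3.53 CPM in Ti and 9.32, 6.80 and 8.67 CPM in Ti + I-OG. Its groups did not overlap, and its log2 fold change of 1.08 ± 0.38 did not pass (adjusted p = 0.628). It had the highest value in a list of 9 further muscle regulators, also chosen after values were seen, of which 6 were tested, 4 were negative and the median was -0.09, with a sign that changed when single libraries were left out.

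None of the 14 fast-fibre genes was called, 3 of 14 had a positive fold change, and the median was -0.09, but its sign changed with limma-voom (0.06), without Ti replicate 2 (0.40) and without Ti + I-OG replicate 1 (0.12). Their fold changes ranged from -1.09 ± 0.49 (Myh1, adjusted p = 0.63) to 0.36 ± 0.41 (Myh2, adjusted p = 0.836). Myh4, the most abundant heavy chain here, stood at 565, 871 and 204 CPM in Ti and at 378, 653 and 675 CPM in Ti + I-OG, so that the titanium libraries alone spanned more than the hydrogel libraries did. None of 14 genes that both fibre kinds use was called, with a median of 0.01 whose sign changed in 9 of 19 alternatives. The slow list as a whole took 0.0600%, 0.0484% and 0.0667% of all counts in Ti and 0.0538%, 0.0583% and 0.0659% in Ti + I-OG, with overlap, and its 6 sarcomere genes (the 5 called and Tnnc1) 0.00141%, 0.00128% and 0.000913% in Ti and 0.00575%, 0.00775% and 0.00619% in Ti + I-OG, without overlap. Most of the slow list's share came from Tpm3 and Atp2a2, which are not confined to muscle. The summed share of the fast list in all counts was 0.466%, 0.743% and 0.199% in Ti and 0.267%, 0.476% and 0.437% in Ti + I-OG. In bulk samples, fewer cells of a kind and less RNA per cell cannot be told apart.

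Ratios of FPKM (fragments scaled to transcript length and library depth) within a library set the slow form against its fast partner. Where muscle alone makes both genes of a pair, these ratios do not change with the amount of muscle if its mix of fibres is fixed. Whether muscle alone made them here was not tested. The ratios do change with which muscles a sample holds, and that part was not tested either. Myh7 was 0.0981%, 0.102% and 0.117% of Myh4 in Ti and 2.96%, 1.54% and 1.61% in Ti + I-OG. The mean ratio was 19.3 times higher in the hydrogel libraries. Tnnc1 was 0.199%, 0.243% and 0.171% of Tnnc2 in Ti and 2.88%, 2.96% and 1.44% in Ti + I-OG. Myl3 was 0.545%, 0.380% and 0.988% of Myl1 in Ti and 4.72%, 5.10% and 4.70% in Ti + I-OG. The other 3 pairs gave ratios of means of 6.77 (Tnni1 to Tnni2), 3.70 (Myl2 to Mylpf) and 2.39 (Tnnt1 to Tnnt3). Among the Ti libraries, replicate 3 had the lowest share of the fast list and the highest ratio in every pair but Tnnc1 to Tnnc2. For Tnnt1 to Tnnt3 the naive ratios (2.33%, 0.691% and 1.36%) overlapped those of Ti + I-OG (2.59%, 1.60% and 1.60%). In the other pairs every naive library lay below every hydrogel library. In all 6 pairs every hydrogel library lay above every titanium library, for which the exact two-sided permutation p was 0.1, the smallest that 3 against 3 allows, so these ratios could not reach 0.05 in this design. Even in the hydrogel libraries the slow forms stayed a small part of the fast ones. Of 8 heart genes, a list chosen after values were seen, 1 had enough counts to be tested. Nppa and Nppb had no count in any library, Myl7 had none in Ti or Ti + I-OG, and Tnni3 had 3 to 5 counts in Ti and 0 to 1 in Ti + I-OG. The tested one, the atrial light chain Myl4, stood at 12.3, 13.9 and 14.6 CPM in Ti and at 18.2, 22.9 and 15.1 CPM in Ti + I-OG. Its groups did not overlap, and it did not pass (0.46 ± 0.42, adjusted p = 0.785). Against naive, Myl4 had 1.54 in Ti + I-OG (adjusted p = 0.0494) and 1.08 in Ti (adjusted p = 0.137). Which cells made Myl4 in these samples was not tested.

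Angptl4 (ENSMUSG00000002289, chr17:33773750-33781830, minus strand) was the only called gene that is not part of the contractile apparatus. It stood at 10.95, 11.2 and 11.7 CPM in Ti and at 22.1, 24.6 and 23.0 CPM in Ti + I-OG. The groups were tight and far apart, with a log2 fold change of 1.04 ± 0.13 (2.06-fold, adjusted p = 0.0213). Naive tibiae had 21.5, 19.5 and 22.1 CPM, close to the hydrogel libraries. Against naive, the log2 fold change was -0.90 ± 0.13 in Ti (adjusted p = 0.00626) and 0.14 ± 0.13 in Ti + I-OG (adjusted p = 0.491). The comparisons with Ti share its libraries. Angptl4 passed in 0 of the 6 fits that left out a library, with adjusted p from 0.0825 to 0.168 and fold changes from 1.00 to 1.08, and lost its call in the fit of the 6 libraries alone (adjusted p = 0.0686) and on the log2(FPKM + 1) scale.

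Angptl4 belongs to a list of 22 PPAR targets and genes of fatty acid oxidation, of which 21 were tested. It was the only member called, but 19 of 21 had a positive fold change (median 0.28) and in 9 the hydrogel libraries lay wholly above the titanium ones, beside 7.75% of all genes. Pdk4, a kinase that restrains the entry of glucose carbon into mitochondria, stood at 21.8, 26.4 and 11.2 CPM in Ti and at 48.3, 47.8 and 39.7 CPM in Ti + I-OG (1.19 ± 0.38, adjusted p = 0.628). Fabp3, the fatty acid binding protein of muscle and heart, stood at 18.8, 22.6 and 7.01 CPM in Ti and at 28.9, 49.0 and 34.5 CPM in Ti + I-OG (1.21 ± 0.43, adjusted p = 0.628). In both genes Ti replicate 3 was the lowest library, as it was for Myh4. Acot1, an acyl-CoA thioesterase, had 4.11, 4.21 and 5.19 CPM in Ti and 8.92, 8.52 and 7.42 CPM in Ti + I-OG (0.88 ± 0.22, adjusted p = 0.628). The lipid droplet gene Plin5 (1.18 ± 0.54) and the muscle uncoupling protein Ucp3 (1.06 ± 0.54) had the other fold changes above 1, and Cpt1a, the gate of fatty acid import into mitochondria, had 0.34 ± 0.20. Several of these genes are also abundant in muscle, and the part of muscle in their values was not tested.

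**Figure D3:**
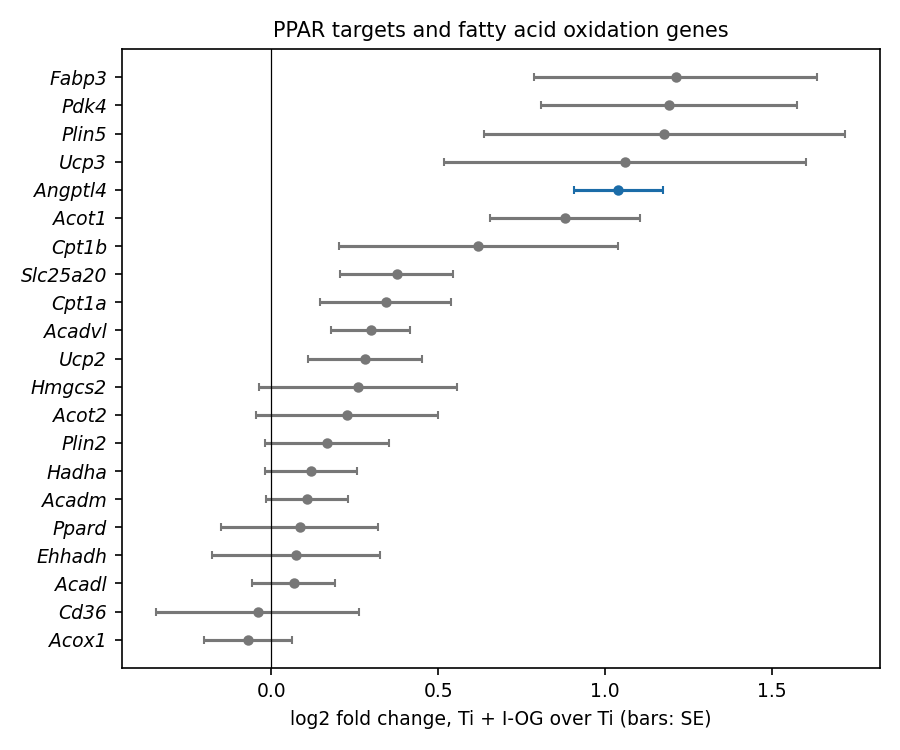
Log2 fold change in Ti + I-OG over Ti for the 21 tested PPAR targets and fatty acid oxidation genes, with bars for the SE. Angptl4 (blue) is the only gene with an adjusted p under 0.05 and has a smaller error than the genes above it, and 19 of the 21 points lie above 0.

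Genes of red cell precursors had positive fold changes throughout, without any passing the test. The 4 globin genes took 6.68%, 7.46% and 9.98% of all counts in Ti and 15.1%, 15.9% and 15.9% in Ti + I-OG. The groups did not overlap, and the difference of 7.61 percentage points had an exact two-sided permutation p of 0.1, the smallest this design allows. Naive tibiae spanned 2.95% to 9.47%. Of the 15 genes for globins and haem synthesis all had a positive fold change (median 0.50, range 0.07 to 1.21), and in 12 of them the groups did not overlap, beside 7.75% of all genes. Hbb-bs, the major beta globin, had 1.21 ± 0.38, Alas2, the enzyme that starts haem synthesis in red cells, 0.89 ± 0.27, and Urod, a later step, 0.56 ± 0.17. All 23 genes of the red cell membrane, its skeleton and its regulators were positive as well (median 0.37), among them Bpgm (0.87 ± 0.30), which makes the regulator of oxygen release, Tspo2 (0.73 ± 0.22) and the skeleton protein Epb41 (0.63 ± 0.19). The smallest adjusted p in these 2 lists was 0.628.

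Among other marrow lineages edgeR's test called no gene either, while DESeq2 called the plasma cell gene Iglv1 lower (adjusted p = 0.0301). Of 30 proliferation genes 27 were positive, with a median of 0.22, which came to 0.06 without Ti replicate 2, to 0.14 without Ti + I-OG replicate 3 and to 0.40 without Ti replicate 3. Cdk1 (0.39 ± 0.15), Cenpa (0.48 ± 0.16) and Tyms (0.33 ± 0.13) had the smallest p. All 15 megakaryocyte and platelet genes were positive with a median of 0.44, yet this median came to 0.11 without Ti replicate 2, to 0.96 without Ti replicate 3, to 0.67 and 0.69 without Ti + I-OG replicates 1 and 2, and to -0.06 without Ti + I-OG replicate 3. The platelet receptor gene Gp9 stood at 28.4, 19.1 and 58.5 CPM in Ti and 50.1, 46.0 and 85.8 CPM in Ti + I-OG. Of 15 genes for MHC class II and dendritic cells 14 were positive (median 0.28), such as H2-Ab1 (0.51 ± 0.22). Of 22 macrophage genes 14 were positive and 8 negative, with a median of 0.11 that came to 0.01 without Ti + I-OG replicate 1 and to 0.07 without Ti replicate 3. Their values ran from -1.13 ± 0.51 for the elastase gene Mmp12, named after its value was seen, to 1.54 for Marco. In 7 of the 22 the hydrogel libraries lay wholly above the titanium ones, beside 7.75% of all genes, among them the scavenger receptors Marco (1.54 ± 0.50) and Cd163 (0.65 ± 0.21), the lectin Siglec1 (0.60 ± 0.20), and Spic (0.63 ± 0.25) and Hmox1 (0.66 ± 0.27), which act in the recycling of haem iron. None passed (adjusted p 0.628 or more). The lists for neutrophils, B cells, T and NK cells, and plasma cells had medians between -0.08 and -0.01, each with a sign that changed when some library was left out. With the correction for length the neutrophil median was -0.28. Of 15 genes of mast cells, eosinophils and basophils 12 were positive, with a median of 0.08 that ranged from 0.00042 to 0.25 when 1 library was left out. The eosinophil granule genes Prg2 and Epx had 0.59 ± 0.21 and 0.61 ± 0.25, and Epx came to 0.35 without Ti replicate 2 and to 0.93 without Ti replicate 3.

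Genes of the skeletal tissues had mostly negative fold changes, again without a call. Cartilage genes had the lowest median of all lists (-1.06, 1 of 19 positive), and 8 of the 19 had hydrogel libraries wholly below the titanium ones, beside 6.71% of all genes. Col2a1, the collagen of cartilage, stood at 382, 397 and 470 CPM in Ti and at 200, 259 and 82.4 CPM in Ti + I-OG (-1.20 ± 0.39, adjusted p = 0.628). Ti + I-OG replicate 3 was the lowest library in Col2a1, and without it the median was -0.67. Sox9, the regulator of chondrocytes, had -1.28 ± 0.41, Comp -0.79 ± 0.28 and the joint lubricant Prg4 -0.67 ± 0.25. How much growth plate or joint surface each sample held is not given in the labels, and its part in these values was not tested.

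Of 22 osteoblast and bone matrix genes 1 was positive (median -0.41), and in 9 the hydrogel libraries lay wholly below the titanium ones, beside 6.71% of all genes. Alpl, the phosphatase that frees phosphate for mineral, stood at 73.8, 86.6 and 83.7 CPM in Ti and at 49.2, 57.1 and 37.1 CPM in Ti + I-OG (-0.77 ± 0.22). Ibsp, a mineral-binding matrix protein, had -0.58 ± 0.21, Bglap -0.61 ± 0.60 and Col1a1 -0.57 ± 0.37. The lineage regulators Runx2 (-0.19 ± 0.12) and Sp7 (-0.36 ± 0.24) had smaller values. Of 12 osteocyte genes 1 was positive (median -0.46): Dmp1 stood at 117, 95.6 and 101 CPM in Ti and at 84.0, 81.8 and 73.1 CPM in Ti + I-OG (-0.40 ± 0.12), without overlap, and Phex (-0.72 ± 0.28), Mepe (-0.55 ± 0.21) and Ptprz1 (-0.52 ± 0.18) had the same sign. Sost, the osteocyte inhibitor of Wnt signalling, had -0.26 ± 0.21. The smallest adjusted p in both lists was 0.628. Both comparisons with naive share libraries with the one described, and their values are given beside it only: the median log2 fold change against naive was 1.27 for osteoblasts and 1.44 for osteocytes in Ti, and 0.87 and 0.95 in Ti + I-OG.

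Connective tissue genes also had mostly negative values. The fibrillar and fibrosis-associated matrix list had 1 of 25 positive (median -0.39), including Col6a1 (-0.50 ± 0.14), Col6a3 (-0.66 ± 0.21), Col12a1 (-0.66 ± 0.22) and Tnc (-0.37 ± 0.13). The tendon and fibrous tissue list had 2 of 16 positive (median -0.48), including Aspn (-0.92 ± 0.30) and Angptl7 (-0.56 ± 0.22). The BMP and TGF-beta list had 9 of 39 positive (median -0.26), including the ligand Tgfb2 (-1.01 ± 0.31) and the receptor Bmpr2 (-0.67 ± 0.17). The marrow stroma list had 3 of 13 positive and a median of -0.08. In 2 of the 13 the groups did not overlap, beside 6.71% of all genes: Kitl (-0.52 ± 0.15), the ligand that maintains blood stem cells, and Foxc1 (-0.61 ± 0.19). None of these genes passed.

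**Figure D4:**
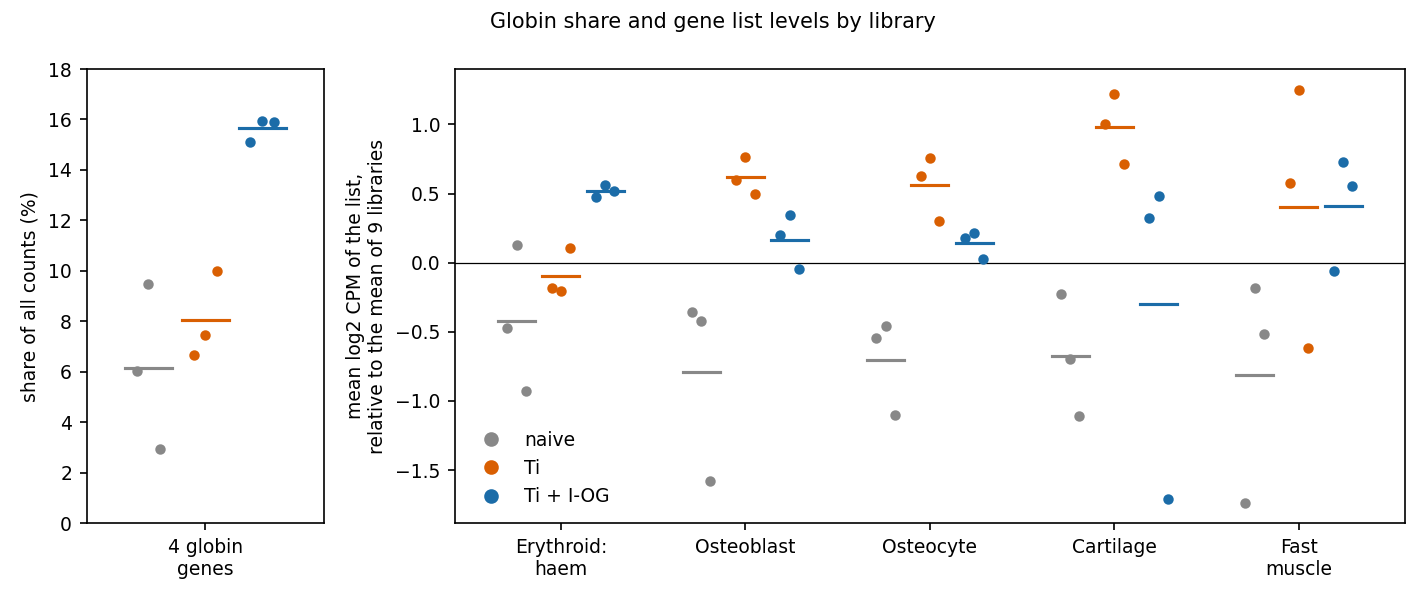
Left, share of all counts taken by the 4 globin genes, in percent. Right, mean log2 CPM of 5 gene lists relative to the mean of the 9 libraries. Points are libraries and bars are means of the 3 libraries of each group. Ti + I-OG lies above Ti in both erythroid measures, below it in the osteoblast and osteocyte lists, and overlaps it in the fast muscle list, and 1 Ti + I-OG library lies far below the others in the cartilage list.

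No gene in the lists for the pathways named in the study's design passed the test in this comparison. For integrins and focal adhesion none of 41 tested genes was called, with 14 positive and a median of -0.11. Itgav, the alpha V chain, stood at 124, 108 and 79.9 CPM in Ti and at 86.4, 76.7 and 60.9 CPM in Ti + I-OG (-0.48 ± 0.19, adjusted p = 0.628), with overlap. Its partner chains Itgb5 and Itgb1 had 0.04 ± 0.14 and -0.20 ± 0.14, and the collagen-binding Itga10 had -0.56 ± 0.20. Fndc5, the irisin precursor, stood at 5.71, 6.43 and 1.76 CPM in Ti and at 4.71, 6.53 and 4.08 CPM in Ti + I-OG (0.13 ± 0.52, adjusted p = 0.957). This measures the mouse transcript and not the irisin supplied by the gel.

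For the Wnt pathway none of 49 ligands, receptors and intracellular members was called, with 14 positive and a median of -0.15 (range -1.25 to 0.74). Ctnnb1, which encodes beta-catenin, had -0.22 ± 0.13, and its target genes Axin2 and Lef1 had 0.14 ± 0.32 and -0.31 ± 0.30. The receptor gene Lgr4 had -0.62 ± 0.28, its ligand Rspo2 -1.07 ± 0.56, and Wls, which carries Wnt proteins out of the cell, -0.38 ± 0.16. Of 11 secreted Wnt inhibitors none was called and 2 were positive (median -0.44). Frzb, an inhibitor made by cartilage, stood at 15.6, 28.6 and 7.25 CPM in Ti and at 6, 8.31 and 1.25 CPM in Ti + I-OG (-1.74 ± 0.57, adjusted p = 0.628), and Wif1 stood at 76.5, 85.2 and 59.3 CPM in Ti and at 47.4, 45.3 and 25.2 CPM in Ti + I-OG (-0.91 ± 0.39, adjusted p = 0.63). In Wif1 the groups did not overlap, in Frzb they did.

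For inflammation none of 31 tested cytokines and mediators was called, with 15 positive and a median of -0.02 (range -0.79 to 1.01). In 4 the hydrogel libraries lay wholly above the titanium ones, beside 7.75% of all genes, and in 1 wholly below, beside 6.71%. Tnf stood at 1.61, 3.84 and 2.45 CPM in Ti and at 4.36, 4.12 and 2.49 CPM in Ti + I-OG (0.47 ± 0.36, adjusted p = 0.743). Il1b had 0.07 ± 0.45, Il1rn, its natural antagonist, -0.37 ± 0.17, and Il6, at 3 to 15 counts per library in these groups, -0.06 ± 0.66. The error of Il6 is wide enough that a change of 2-fold in either direction was not detectable at this depth. None of 31 Toll-like receptor and NF-kappa B genes was called (median -0.10, range -0.47 to 0.20). Nor was any of 23 interferon-stimulated genes (median -0.02, range -0.49 to 0.86). The sign of the median changed in 7 of 19 alternatives for the cytokines and in 5 for the interferon-stimulated genes. Tlr8, a sensor of single-stranded RNA, had -0.47 ± 0.20, and the interferon-induced Oas2 had -0.45 ± 0.19. Of 19 osteoclast genes none was called and 6 were positive (median -0.14). The resorption enzymes Acp5 and Ctsk had 0.01 ± 0.21 and -0.24 ± 0.21, the osteoclast regulator Nfatc1 -0.30 ± 0.19, and the calcitonin receptor Calcr -0.69 ± 0.42. Tnfsf11, which encodes RANKL, stood at 5.996, 5.57 and 3.87 CPM in Ti and at 5.85, 3.30 and 1.64 CPM in Ti + I-OG (-0.51 ± 0.39). Its decoy receptor gene Tnfrsf11b had -0.53 ± 0.49. Their groups overlapped.

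**Figure D5:**
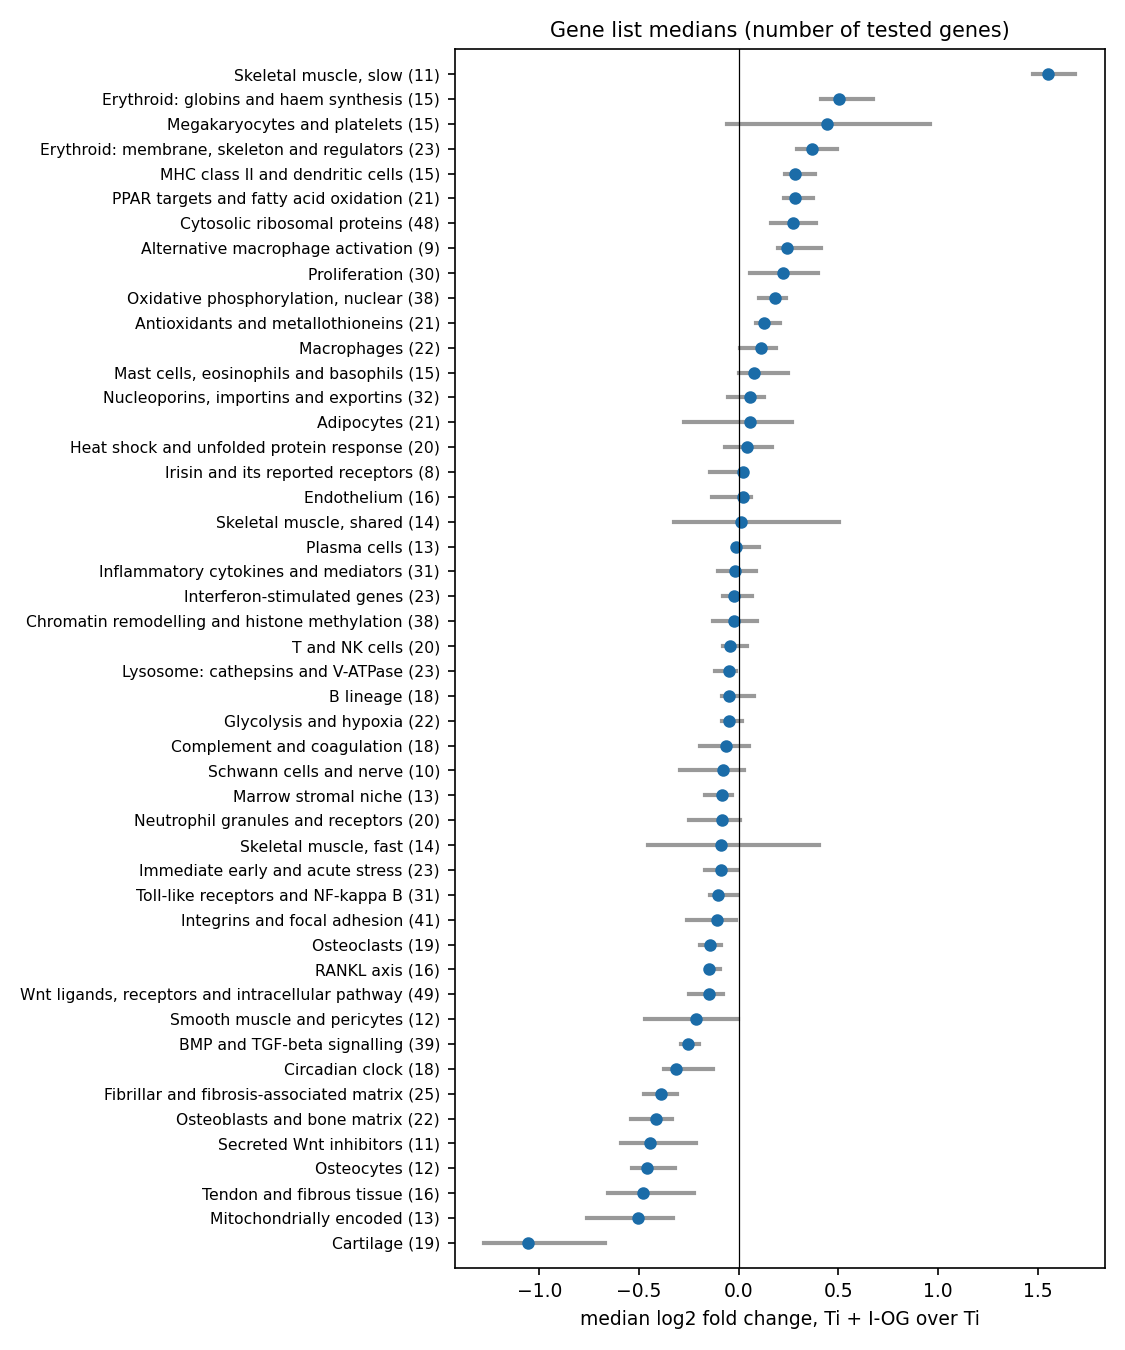
Median log2 fold change in Ti + I-OG over Ti for 48 gene lists with at least 8 tested members (blue points; number of tested genes in brackets), with grey bars from the lowest to the highest median when each of the 6 libraries was left out in turn. The slow muscle list stands apart at 1.55 and the cartilage list has the lowest value at -1.06, while the bars of the fast and shared muscle lists cross 0.

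The mitochondrially encoded genes differed in sign from the nuclear genes for oxidative phosphorylation and for cytosolic ribosomal proteins. Other nuclear lists had small medians of either sign. These were -0.05 for glycolysis and hypoxia, -0.05 for the lysosome, -0.03 for chromatin remodelling and 0.06 for nucleoporins. The sign changed in 2 of 19 alternatives for glycolysis and hypoxia, 3 for chromatin remodelling and 4 for nucleoporins. With the correction for length the chromatin median, from long transcripts, was 0.08. All 13 mitochondrially encoded genes were negative (median -0.50, or -0.71 with the correction for length), such as mt-Nd4 (-0.60 ± 0.26), with overlapping groups. Their share of counts was 10.3%, 11.9% and 5.87% in Ti and 7.36%, 7.19% and 5.74% in Ti + I-OG, so Ti replicates 1 and 2 stood above the rest. Of 38 nuclear genes for oxidative phosphorylation 37 were positive (median 0.18), and of 48 cytosolic ribosomal protein genes 44 were (median 0.27), such as Rpl8 (0.38 ± 0.14). These 2 nuclear groups also have short transcripts, and with the correction for length their medians were 0.04 and 0.08. None of these genes passed.

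No gene passed in the lower direction. The 6 with the smallest p there were Ighg1, Iglv1, Gpr141, Rin2, Col8a1 and Fgl2. Ighg1, the constant region of an IgG1 heavy chain, stood at 148, 58.4 and 248 CPM in Ti and at 21.9, 33.0 and 35.5 CPM in Ti + I-OG. The groups did not overlap, the titanium libraries were widely spread, and the log2 fold change was -2.33 ± 0.44 (adjusted p = 0.345). Col8a1, a short-chain collagen of vessels, stood at 51.0, 60.6 and 33.2 CPM in Ti and at 21.3, 27.3 and 21.4 CPM in Ti + I-OG (-1.05 ± 0.24, adjusted p = 0.628). The light chain gene Iglv1 had -0.85 ± 0.18, the orphan receptor Gpr141 -0.71 ± 0.16, the Rab5 exchange factor Rin2 -0.56 ± 0.13 and Fgl2, a prothrombinase of myeloid and T cells, -0.53 ± 0.12. DESeq2 called 5 of these 6 genes lower, all but Fgl2. With the replicate number as a block, Ighg1 and Col8a1 were called lower (adjusted p = 0.0448 for both), and Ighg1 also passed without Ti replicate 2 (adjusted p = 0.0226).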

How the data were processed

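Gene expression was measured by RNA-seq of mouse tibiae (poly(A) selection with the NEBNext Ultra kit, which does not mark the strand, and Illumina sequencing, per the labels' protocols). For every gene and library, the table deposited by the authors holds 1 estimated count and 1 FPKM value. Among the tools, the submitters' processing notes list RSEM, StringTie 1.3.1, fastp, edgeR and DESeq2 without saying what each did. Aligner, build and annotation: not given in the sources used here.

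Estimated counts were rounded and fitted in 1 model of all 9 libraries with 6 residual degrees of freedom (edgeR 4.0.16 in R 4.3.3, TMM scaling, filterByExpr, quasi-likelihood test). Of 22183 genes 14211 were tested, 7972 were left out, of which 4425 had no counts, and 13 had no symbol. The threshold was an adjusted p of 0.05, and each SE was taken as the absolute log2 fold change over the root of F. Alternatives used DESeq2 1.42.0, limma 3.58.1 (voom, or log2 of FPKM plus 1 or 0.1), other scalings and filters, a replicate block, and fits without each library. A correction for transcript length and a fit without naive replicate 3 were added after seeing the data. Within every group, pairs of replicates differed beyond sampling noise (chi-square over its degrees of freedom 12.9 to 132), and each library was counted as 1 sample. Floors cover counting error only. The steps were tested on simulated data. Of 100 genes given a 2-fold change 43 were called, and of 100 given a 4-fold change 95. There were 6 false calls among unchanged genes. In that simulation a 2-fold change was thus often missed.

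The groups and the 49 gene lists were chosen with earlier results of these data known, and 4 further lists and 9 genes after values were seen. Genes are named by rule. Candidates passed the test with no overlap between groups and a mean FPKM of at least 1. Per direction the 12 with the largest fold change were taken, or the 6 of smallest p if none passed. Up to 4 members of each list were added, those of smallest p in the direction of the list's median, and a preset set. Members picked by their list share the sign of its median by construction, so they do not stand for the whole list. Overlaps come from GENCODE M21 (GRCm38) and promoters from RefSeq (GRCm38.p6).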

Additional observations from a re-analysis of the deposited data

How the results depend on the processing

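Which genes passed rested on few libraries and on the tool. DESeq2 called 16 genes (11 higher, 5 lower), and the replicate block called 9 (7 higher and, lower, Ighg1 and Col8a1, 2 genes). Leaving out 1 library gave 0 to 5 calls in all, 0 to 3 higher and 0 to 2 lower: 0 without Ti replicate 1, 5 without Ti replicate 2, 1 without Ti replicate 3, 2 without Ti + I-OG replicate 1, and 1 without replicate 2 or 3 of that group. Other scalings, filters, limma fits and the fit of 6 libraries gave 4 to 7 calls, none lower. The cause of these differences was not tested. Same-numbered libraries of the 2 groups had correlated deviations of 0.0739, 0.203 and 0.220, and each library correlated best with its own number. No label says that the numbers pair libraries, so they were not taken as pairs, and whether they are pairs is not known. With the replicate block 1880 genes had an unadjusted p under 0.05, beside 596 higher and 518 lower genes in the main fit. On the log2(FPKM + 0.1) scale the median of all genes was -0.11. Of 113 named genes, 106 kept their sign in every alternative. The other 7 had values near 0 and were not called. On the log2(FPKM + 1) and log2(FPKM + 0.1) scales, Itgb5 came to -0.0784 and -0.0821, Acp5 to -0.141 and -0.142, Il1b to -0.0346 and -0.0353, and Il6 to 0.0275 and 0.0384. Acp5 was -0.0174 with limma-voom, and with the length correction Acp5 was -0.12 and Il1b -0.0481. Without 1 library, Acp5 ranged from -0.196 to 0.201, Axin2 from -0.0849 to 0.248, Fndc5 from -0.255 to 0.443, Il1b from -0.0409 to 0.253, Il6 from -0.504 to 0.432, Itgb5 from -0.0756 to 0.146 and Myh4 from -0.336 to 0.566. Of 49 list medians, 29 kept their sign in 19 alternatives (11 positive, 18 negative) and 20 did not. With 3 libraries a group, depth limits genes such as Il6 and Tnni3, at few counts per library.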

Other observations

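Replication-dependent histone genes and immunoglobulin genes were looked at after their values were seen, so their values are a description only. Of 50 tested histone genes none was called by edgeR's test, 43 had a positive fold change (median 0.51, or 0.31 with the correction for length), and in 18 the Ti + I-OG libraries lay wholly above the Ti libraries, beside 7.75% of all genes. H1f5, a linker histone, had 1.11, and H2ac8, a core histone, 1.35. The libraries were made by poly(A) selection, and its part in the histone values was not tested. Of 165 tested immunoglobulin genes edgeR's test called none, DESeq2 called 2 lower (Ighg1 and Iglv1), and the replicate block called Ighg1 lower. Of the 165, 61 were positive, with a median of -0.29 that was -0.52 with the correction for length and ranged from -0.55 (without Ti replicate 2) to -0.10 (without Ti replicate 1) when 1 library was left out. Their groups did not overlap in 19 lower genes, beside 6.71% of all genes, and in 3 higher genes, beside 7.75%, while the summed share of immunoglobulin genes in all counts was 0.508%, 0.379% and 0.652% in Ti and 0.591%, 0.389% and 0.538% in Ti + I-OG, with overlap.

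A few myeloid and stress genes, also chosen after their values were seen, had groups that did not overlap without passing edgeR's test. The Ti + I-OG libraries lay wholly above the Ti libraries in 1101 of all 14211 genes (7.75%), so these genes are a description only. Olfm4, a neutrophil granule gene, stood at 65.9, 55.9 and 64.8 CPM in Ti and at 97.8, 120 and 114 CPM in Ti + I-OG. Serpina3g, a serine protease inhibitor, stood at 23.4, 28.9 and 25.5 CPM in Ti and at 53.4, 37.1 and 46.7 CPM in Ti + I-OG. Ppp1r15a, which restores protein synthesis after stress, stood at 174, 166 and 204 CPM in Ti and at 317, 304 and 309 CPM in Ti + I-OG. DESeq2 called these 3 genes higher. Isg20, an exonuclease induced by interferon, stood at 132, 170 and 194 CPM in Ti and at 322, 334 and 305 CPM in Ti + I-OG. The list of interferon-stimulated genes, which does not hold Isg20, had 11 of 23 positive and a median of -0.02. Circadian clock genes had 3 of 18 positive, with a median of -0.32 that came to -0.13 without Ti + I-OG replicate 1. Their values ran from -0.79 (Nr1d2) to 0.96 (Npas2, whose groups did not overlap), with Per2 at -0.52, and the time of day of sampling is not given in the labels.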
